A study of Mus musculus with 78 samples.

Results

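The comparison set flank tissue of mice treated with the antibody DC101 on day 20 against the same treatment on day 5, at skin sites injected with an adenovirus carrying VEGF-A164 (Ad-VEGF-A164). It used 16 of the 78 arrays of the series, 8 labelled DC101 day 20 and 8 labelled DC101 day 5, chosen by the source label alone. All 14718 genes that passed a filter on dim signals were tested.

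All mice were female athymic nude mice (Crl:NU(NCr)-Foxn1nu) of 4 to 6 weeks, and the same animals also carried the virus in the ears. DC101 was injected intraperitoneally at 20 mpk, the labels' unit for the dose. The labels do not say whether a day counts from virus, antibody or harvest. An empty-vector group was not analysed here, and every DC101 array carries virus and antibody together. For reference, untreated sites (virus, no antibody) had 8 arrays on day 20 and 8 on day 5, sites given a second antibody, G6, at 10 mpk had the same numbers, and 8 arrays of control flank were labelled day 0. The design speaks of at least 5 animals per group while the labels tie no array to an animal, so an animal may stand behind more than 1 array, in which case the p-values are too low.

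VEGF-A signals to endothelial cells through VEGF receptor 2, encoded by Kdr, and drives sprouting, permeability and division. DC101 is a rat antibody that binds mouse VEGF receptor 2 and blocks this signal. The adenoviral model gives a burst of VEGF-A that is strong at first and then declines, and its vessels are used as surrogates of tumour vessels. Skin of the flank also holds fibroblasts, hair follicles, pigment cells, fat, the thin panniculus muscle and resident leukocytes, all of which the arrays read at once. In such bulk tissue, fewer cells of a type and less RNA per cell cannot be told apart.

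In the DC101 sites, 3068 of 14718 genes differed between day 20 and day 5, which is 20.8% of those tested (limma, Benjamini-Hochberg adjusted p under 0.05). The higher genes numbered 1467 (9.97% of those tested) and the lower genes 1601 (10.9%). Changes of at least 2-fold leaned downward, with 145 genes higher and 329 lower. Without 6 arrays that stood apart (66, 68, 70, 72, 19 and 20, described below), 919 genes were higher and 823 lower, so that the larger count was then that of the higher genes. The median log2 difference over all genes was 0.036. Untreated sites changed in 1533 genes upward (10.4%) and 1440 downward (9.78%) over the same days. Of the DC101 calls, 42.6% were also called in untreated sites and 43.9% of the untreated calls were also called under DC101, with 1281 of the 1306 shared genes moving the same way.

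Skin markers were present throughout: the mean level of the epidermis list ran from 11.92 to 13.91 on DC101 day 20 and 12.09 to 13.91 on DC101 day 5, and that of the fibroblast matrix list from 13.2 to 14.44 and from 12.47 to 14.26 on the same days. Some arrays stood apart. Day 20 arrays 68 and 72 had a mean skeletal muscle level (mean log2 over 24 muscle genes) of 16.06 and 16.15, while the other 6 day 20 arrays ran from 12.95 to 14.44 and the day 5 arrays from 13.89 to 15.11. Hair follicle genes were low on day 5 arrays 19 and 20. Day 20 arrays 66 and 70 were high in hair or pigment genes, and array 66 had the lowest Vegfa. In a principal component analysis of the 16 arrays, day 5 arrays 21 and 22 had the lowest values on the second component (-33.4 and -39.5). They were also lowest on the third (-33.3 and -38.9). These arrays were left out 1 at a time but not as a pair, so the settings below do not cover every array that stood apart. Correlations between arrays ran from 0.866 to 0.969 within day 20, 0.891 to 0.977 within day 5 and 0.854 to 0.955 between the days. The 3′ to 5′ signal ratio of the Actb control probes, a measure of RNA quality, was 1.35 to 2.26 on day 20 and 1.19 to 1.66 on day 5 (log2 difference 0.356, exact two-sided permutation p = 0.00513, adjusted p = 0.0103 over 2 ratios). The Gapdh ratio differed by 0.022 (exact permutation p = 0.739). Below, "all 6 arrays" means 66, 68, 70, 72, 19 and 20, and "the RNA ratios" means the Actb and Gapdh ratios as covariates in the model.

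**Figure D1:**
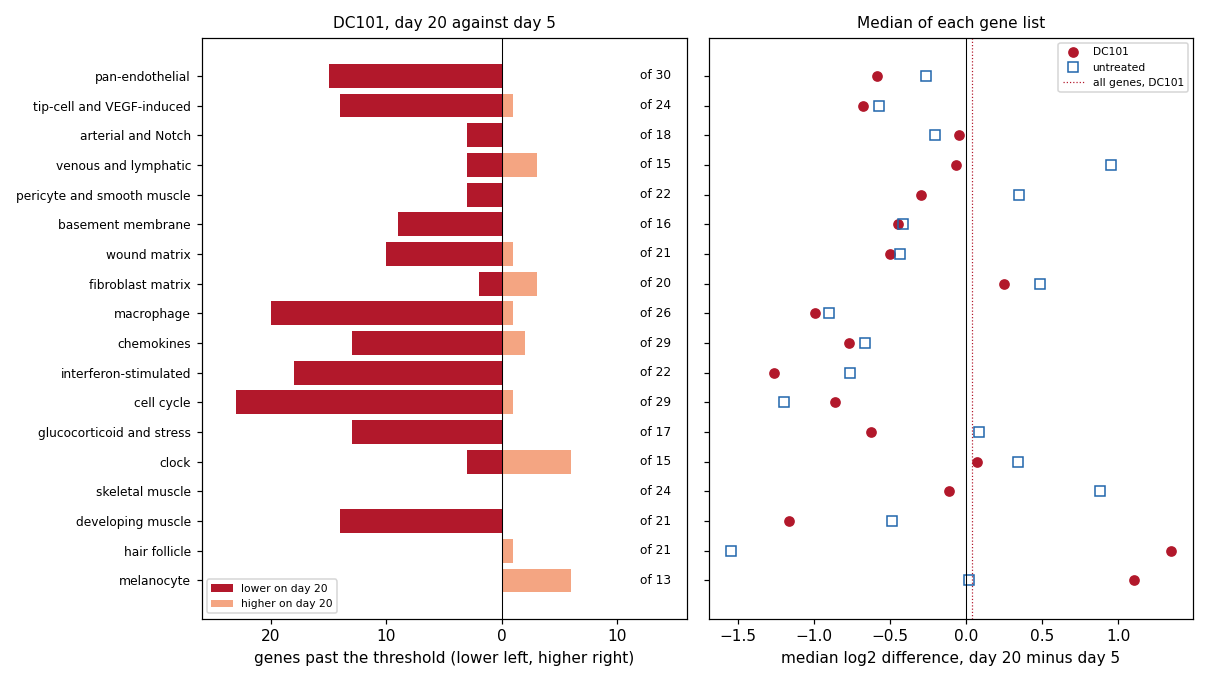
Genes past the threshold in each list (left, lower in dark red to the left of 0 and higher in light red to the right, with the number tested) and the median log2 difference of day 20 minus day 5 for each list (right) under DC101 (filled circles) and in untreated sites (open squares), with the median of all genes under DC101 as a dotted line. Macrophage, interferon-stimulated, cell cycle and endothelial lists hold more genes lower than higher on day 20, and the glucocorticoid list has a median of -0.63 under DC101 and 0.09 in untreated sites.

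The brighter Vegfa probe set fell 2.93-fold between the days under DC101, and with it Kdr, Flt4 and 15 of 30 pan-endothelial genes fell and 0 rose. Levels are log2(signal + 16), given below as the lowest, median and highest of a group's 8 arrays. Vegfa read 10.18, 12.21 and 13.36 on DC101 day 20 arrays, against 12.52, 13.96 and 14.86 on DC101 day 5 arrays. The groups overlapped, and all 8 day 20 arrays lay below the day 5 mean (log2 difference -1.55, SE 0.39, adjusted p = 0.0019). Without the 6 arrays named above the difference was -0.58 (adjusted p = 0.47). As the mean of the gene's probe sets it was -0.5 (adjusted p = 0.071).

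Control flank had a median Vegfa level of 10.18, so the day 20 DC101 median was still above it, as were the untreated medians of 12.56 on day 20 and 14.06 on day 5 and the G6 medians of 12.29 and 13.85. The second Vegfa probe set, which is dimmer, moved the other way, with a log2 difference of 0.56 (SE 0.18, adjusted p = 0.017), with 10.61 ± 0.44 on DC101 day 20 and 10.05 ± 0.38 on DC101 day 5 (SD, n = 8 each, limma over all genes). It was highest in control flank at 11.81 ± 0.36. The probes' places in the transcript are not given in the files used here.

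Kdr, the receptor that DC101 binds, had 10.6, 11.82 and 13.06 on DC101 day 20 and 12, 12.74 and 12.95 on DC101 day 5. The ranges overlapped widely, and the fall of 0.70 (SE 0.26) was just past the threshold (adjusted p = 0.049). It did not pass when any of 10 single arrays was left out (66, 68, 69, 70, 72, 19, 20, 21, 22 or 24), and was -0.51 without array 66 (adjusted p = 0.17). Flt4, the receptor for VEGF-C and VEGF-D, fell by 0.97 (SE 0.34, adjusted p = 0.032), a call lost without any 1 of arrays 66, 68, 70, 72, 21 and 24 (-0.82 and adjusted p = 0.087 without 66), and another of its probe sets gave -0.35 (adjusted p = 0.51). Without all 6 arrays Kdr differed by -0.14 (adjusted p = 0.84) and Flt4 by -0.44 (adjusted p = 0.57), and with the RNA ratios Kdr differed by -0.73 (adjusted p = 0.074). For Flt1, VEGF receptor 1, the difference of -0.48 (SE 0.30) did not pass (adjusted p = 0.28), while another of its probe sets gave -1.3 (adjusted p = 7.5e-05). Kdr medians were 12.26 on day 20 and 13.34 on day 5 in untreated sites, 10.97 and 10.75 in G6 sites, and 10.83 in control flank.

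Cdh5 encodes VE-cadherin, the adhesion molecule of endothelial junctions. It read 10.41, 11.59 and 12.72 on DC101 day 20, against 12.92, 13.35 and 14.08 on DC101 day 5. No day 20 array reached the lowest day 5 array (log2 difference -1.71, SE 0.29, adjusted p = 6.6e-06). Cd93, an endothelial glycoprotein, fell by 1.54 (SE 0.31), Robo4, an endothelial guidance receptor, by 1.41 (SE 0.24), and Tie1, an orphan receptor tyrosine kinase, by 1.22 (SE 0.38). The Tie1 call was lost without arrays 66 and 70 (-1.05, adjusted p = 0.063), without 68 and 72 (-1.02, adjusted p = 0.075) and without all 6 (-0.73, adjusted p = 0.37). A dimmer probe set gave -0.43 for Cdh5 (adjusted p = 0.21), and 2 others gave -0.8 (adjusted p = 0.093) and -0.33 (adjusted p = 0.37) for Cd93. Pecam1, the general endothelial marker CD31, had 10.41, 11.26 and 12.25 on DC101 day 20 and 10.62, 11.95 and 12.5 on DC101 day 5, a difference of -0.44 that did not pass (adjusted p = 0.35). The median of the pan-endothelial list was -0.58 under DC101 and -0.27 in untreated sites, beside 0.04 for all genes under DC101. In untreated sites 6 of the 30 fell and 4 rose. The DC101 change minus the untreated change passed for 1 of the 30, with the DC101 change lower. Under DC101, 6 of the 30 fell without day 20 arrays 66 and 70, and 9 without 68 and 72. Without all 6 arrays named above 3 fell, and with the RNA ratios in the model 7 did. Leaving out array 66 alone left 8, and leaving out day 5 array 24 alone left 9.

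Genes of tip cells, the leading cells of a sprout, and genes that VEGF induces fell in 14 of 24 cases, with 1 rise. In untreated sites 10 of the 24 fell and 1 rose (median -0.575, beside -0.678 under DC101). The DC101 change minus the untreated change passed for 0 of the 24. Kcne3, a potassium channel subunit found in tip cells, had the largest fall of the list. Its levels were 8.79, 9.36 and 10.77 on DC101 day 20 and 11.76, 12.42 and 12.9 on DC101 day 5, with no overlap (log2 difference -2.78, SE 0.41, adjusted p = 3.5e-07). Apln, the tip-cell peptide apelin, was at 9.93, 10.41 and 10.58 on day 20 under DC101, against 11.13, 11.38 and 11.95 on day 5, again with no overlap (log2 difference -1.09, SE 0.20, adjusted p = 2e-05).

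Nid2, a basement membrane protein, fell by 1.53, Mcam, an adhesion molecule of vessels, by 1.5, and Cxcr4, the CXCL12 receptor, by 1.23. The 1 member that rose under DC101 was Egr3, a transcription factor (log2 difference 0.95). Egr3 was named through a list of immediate early genes that was written after values were seen. The Egr3 call was lost without any 1 of arrays 66, 69, 70, 71, 19, 20, 23 and 24 (0.8 and adjusted p = 0.11 without 20) and with the RNA ratios (0.62, adjusted p = 0.28). Mcam differed by -1.05 (adjusted p = 0.079) and Cxcr4 by -1.06 (adjusted p = 0.057) without all 6 arrays. Esm1, a secreted proteoglycan of tip cells, differed by -0.93 without passing (adjusted p = 0.24). The list's fall counted 9 genes without arrays 66 and 70, 7 without all 6 arrays, and 9 with the RNA ratios in the model.

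**Figure D2:**
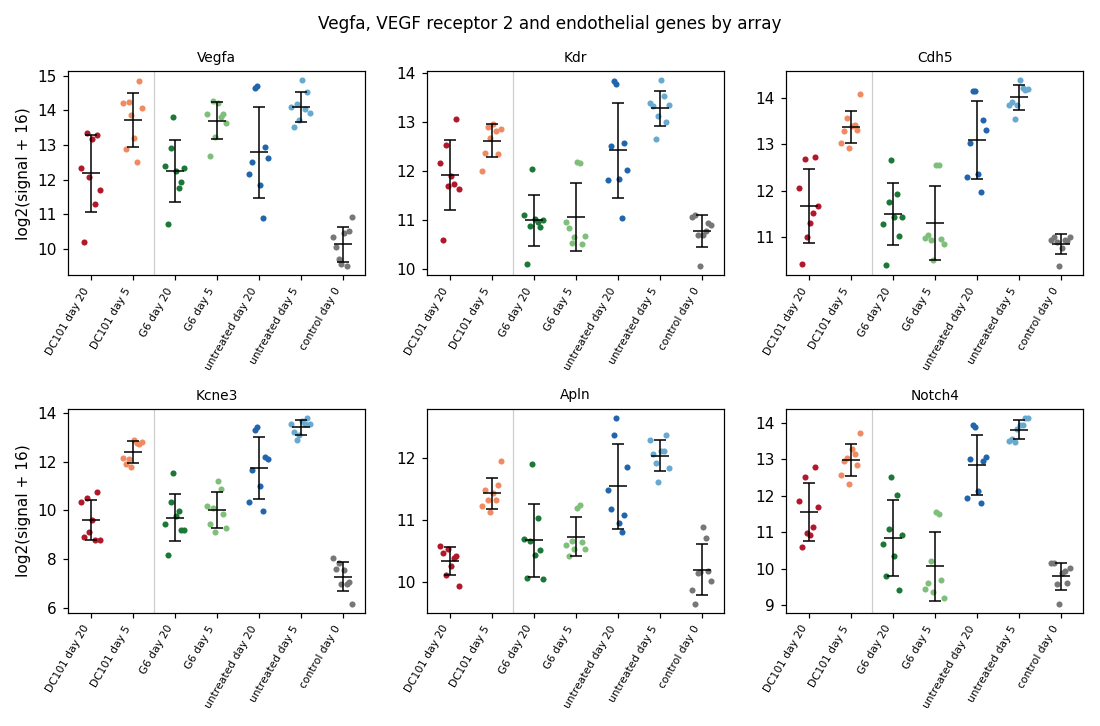
Level of Vegfa, Kdr, Cdh5, Kcne3, Apln and Notch4 on each array (points, log2(signal + 16)) in 7 groups, with the mean and SD of each group in black. Cdh5, Kcne3 and Apln of the 8 DC101 day 20 arrays all lie below those of the 8 DC101 day 5 arrays, while the Kdr values of the groups overlap.

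Of 18 arterial and Notch genes, Notch4, Dll4 and Hey1 fell and none rose, beside 10.9% of all genes called lower. Notch4, an endothelial Notch receptor, fell by 1.41 (SE 0.37, adjusted p = 0.0032), and the Notch ligand Dll4 by 0.82 (SE 0.21, adjusted p = 0.0024). The Notch4 call was lost with the RNA ratios (-1.05, adjusted p = 0.062) and without all 6 arrays (-1.05, adjusted p = 0.15). Hey1, a target of Notch, had a log2 difference of -0.83, and its call was lost without any 1 of arrays 65, 66, 68, 69, 70, 17, 18, 19, 21, 23 and 24 (-0.71 and adjusted p = 0.11 without 66). The venous and lymphatic list split, with 3 of 15 genes higher and 3 lower, beside 9.97% and 10.9% of all genes. Prox1, the transcription factor that sets lymphatic identity, had 7.69, 8.43 and 10.01 on DC101 day 20 and 6.63, 7.21 and 7.53 on DC101 day 5. All its day 20 arrays lay above all day 5 arrays (log2 difference 1.35, SE 0.41, adjusted p = 0.013), although every day 5 level is below the filter level of 8.44 and the fold is at least 1.05 against that level. Nr2f2, which sets venous identity, rose by 0.57 (adjusted p = 0.024; 0.48 and adjusted p = 0.073 without array 22, and not past the threshold without 68 or 21 either), and Ackr1, a chemokine receptor of venules, by 0.52 (0.4 and adjusted p = 0.1 without 21; also lost without 67, 68 or 22). The 3 members that fell were Aplnr, Flt4 and Thy1, by 0.82, 0.97 and 0.96. The Aplnr call was lost without any 1 of arrays 66, 68, 69, 72, 18, 19, 21, 22 and 24 (-0.69 and adjusted p = 0.098 without 66) and with the RNA ratios (-0.56, adjusted p = 0.23). Other probe sets gave -0.44 for Aplnr (adjusted p = 0.31) and 0.44 for Nr2f2 (adjusted p = 0.22). Thy1 differed by -0.58 without all 6 arrays (adjusted p = 0.11). In untreated sites 8 of the 15 rose and 2 fell.

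Basement membrane genes fell in 9 of 16 cases and none rose. In untreated sites 6 of the 16 fell and 1 rose (median -0.415, beside -0.45 under DC101). The DC101 change minus the untreated change passed for 0 of the 16. Col18a1, the source of endostatin, read 11.25, 12.05 and 12.69 on DC101 day 20 and 12.99, 13.49 and 14.14 on DC101 day 5, without overlap (log2 difference -1.49, SE 0.24, adjusted p = 2.8e-06). Col15a1 fell by 1.38 (SE 0.22), Col4a2 by 1.08 (SE 0.27) and Col4a1 by 0.88 (SE 0.23), the last 2 being the chains of the main collagen of the vessel wall. Without all 6 arrays, or with the RNA ratios in the model, 4 of the 16 fell. Col4a1 then differed by -0.51 without all 6 arrays (adjusted p = 0.27) and -0.66 with the RNA ratios (adjusted p = 0.062), and Col4a2 by -0.67 without all 6 (adjusted p = 0.22).

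Wound matrix genes, made by activated fibroblasts, fell in 10 of 21 cases. In untreated sites 9 of the 21 fell and 1 rose (median -0.434, beside -0.499 under DC101). The DC101 change minus the untreated change passed for 0 of the 21. Thbs1, the angiogenesis inhibitor thrombospondin, had 9.19, 10.01 and 10.74 on DC101 day 20 and 11.15, 11.55 and 12.35 on DC101 day 5, with no overlap (log2 difference -1.70, SE 0.34, adjusted p = 9.4e-05). Tnc, tenascin C, fell by 1.47 and Timp1, a metalloproteinase inhibitor, had a log2 difference of -1.43. Fap, a fibroblast surface protease, was the single member that rose under DC101, by 0.48. It did not pass without any 1 of arrays 65, 66, 67, 68, 69, 18, 21 and 22 (0.32 and adjusted p = 0.2 without 22). Without all 6 arrays 6 of the list fell.

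Of 20 genes of resting dermal matrix 3 rose and 2 fell, near the 9.97% and 10.9% of all genes. Dpt, dermatopontin, was at 15.54, 15.86 and 16.31 on DC101 day 20, against 13.72, 15.24 and 15.69 on DC101 day 5 (log2 difference 0.86, SE 0.21, adjusted p = 0.0018), and the groups overlapped. Dcn, the collagen-binding proteoglycan decorin, rose by 0.53 (adjusted p = 0.0063; 0.32 and adjusted p = 0.083 after quantile normalization) and Ogn, osteoglycin, by 0.75, while Col6a1 and Col6a2, chains of collagen VI, fell by 0.53 and 0.60. These last 3 calls each turned on single arrays: Ogn was lost without any 1 of 65, 67, 68, 69, 21 and 22 (0.52 and adjusted p = 0.18 without 22), Col6a1 without any 1 of 66, 70, 72, 17, 19, 23 and 24 (-0.44 and adjusted p = 0.11 without 72), and Col6a2 without these or 69 or 18 (-0.5 and adjusted p = 0.12 without 72). With the RNA ratios 7 of the 20 rose and none fell. Of 19 proteases 2 rose and 3 fell, beside 9.97% and 10.9% of all genes. Among 19 proteases Ctsk, cathepsin K, rose by 1.42 (SE 0.33) and Mmp2, gelatinase A, by 0.70 (SE 0.25; 0.48 and adjusted p = 0.15 without array 22, and not past the threshold without 65, 67, 68, 69, 18 or 21 either), while Adamts4, Adamts9 and Ctsb fell by 1.57, 0.68 and 0.33. Adamts9 did not pass without any 1 of arrays 66, 68, 72, 21 and 24 (-0.59 and adjusted p = 0.072 without 66), and without all 6 arrays it differed by -0.34 (adjusted p = 0.53) and Ctsb by -0.26 (adjusted p = 0.22). Other probe sets gave -0.34 (adjusted p = 0.34) and -0.3 (adjusted p = 0.36) for Adamts9, -0.02 (adjusted p = 0.97) for Ctsb and 0.63 (adjusted p = 0.16) for Ogn. Pericyte and smooth muscle genes passed in 3 of 22 cases, a share near the 10.9% of all genes called lower. The 3 were Acta2, Actg2 and Casq2, of which the first 2 encode smooth muscle actins and Casq2 a calcium store protein of heart and slow muscle. These 3 calls were lost with the RNA ratios in the model, that of Acta2 also without any 1 of 13 of the 16 arrays (all but 67, 71 and 20; -0.65 and adjusted p = 0.095 without 66), and that of Casq2 without array 69, 18 or 20 (-0.64 and adjusted p = 0.068 without 20). Other Acta2 probe sets gave -0.71 (adjusted p = 0.3) and -0.09 (adjusted p = 0.85). Without all 6 arrays 2 of the 22 fell.

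Macrophage genes fell in 20 of 26 cases, with a median of -0.99 under DC101 beside -0.90 in untreated sites and 0.04 over all genes. Laptm5, a lysosomal protein of leukocytes, read 11.5, 12.53 and 12.92 on DC101 day 20 and 12.89, 14.02 and 14.59 on DC101 day 5, and the groups touched only at their edges (log2 difference -1.69, SE 0.23, adjusted p = 7.1e-08). Mpeg1, the pore-forming perforin-2 of phagocytes, fell by 1.52 with no overlap between the groups. Trem2, a lipid receptor of macrophages, fell by 2.74 (SE 0.42), the general marker Cd68 by 1.20 (SE 0.26) and the mannose receptor Mrc1 by 1.14 (SE 0.24). Cd68 differed by -0.64 (adjusted p = 0.2) and Mrc1 by -0.65 (adjusted p = 0.16) without all 6 arrays. Dimmer Laptm5 probe sets gave -0.37 (adjusted p = 0.56) and 0.2 (adjusted p = 0.5).

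Gpnmb, which macrophages and pigment cells both express, was the member that rose, by 1.0, a call lost without array 24 (0.83, adjusted p = 0.068) and with the RNA ratios (0.72, adjusted p = 0.15). Another Gpnmb probe set gave 0.31 (adjusted p = 0.37). Counts of lower macrophage genes were 14 without arrays 66 and 70, 17 without 68 and 72, 6 without all 6 arrays, and 17 with the RNA ratios in the model. The 15 largest falls held Ly9, a SLAM family receptor of leukocytes, and Ms4a4c, a leukocyte membrane protein. Ly9 was at 5.35, 6.18 and 8.15 on DC101 day 20, all below the filter level, against 8.77, 9.52 and 10.17 on DC101 day 5 (log2 difference -3.12, SE 0.37, adjusted p = 7.8e-10, and at least 2.12-fold lower against the filter level). Ms4a4c had 8.47, 9.16 and 10.07 on day 20 and 11.9, 12.19 and 12.67 on day 5 under DC101, a fall of 3.0 with no overlap. Among 14 lymphocyte and natural killer genes 2 rose and 3 fell, beside 9.97% and 10.9% of all genes. Gzma, Gzmb and Prf1, the granule proteins of killer cells, fell by 1.77, 1.54 and 0.47. Jchain and Ms4a1, genes of B-lineage cells, had log2 differences of 1.48 and 0.40. Every Jchain level of DC101 day 5 lay below the filter level, so its rise is at least 1.52-fold against that level. The Jchain call was lost with adjacent arrays averaged (adjusted p = 0.067) and without all 6 arrays (1.47, adjusted p = 0.074). Prf1 did not pass without any 1 of arrays 69, 70, 71, 72, 19, 20, 21, 23 and 24 (-0.41 and adjusted p = 0.079 without 20), and its other probe set gave 0.06. Ms4a1 did not pass without any 1 of 68, 69, 70, 71, 19, 22 and 24 (0.35 and adjusted p = 0.1 without 68). With the RNA ratios Gzma differed by -1.26 (adjusted p = 0.055) and Gzmb by -1.17 (adjusted p = 0.097), and without all 6 arrays Gzma differed by -1.25 (adjusted p = 0.13).

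Ccl2, the chemokine that recruits monocytes, read 7.58, 8.8 and 9.99 on DC101 day 20 and 10.37, 11.57 and 11.92 on DC101 day 5. The groups did not overlap (log2 difference -2.59, SE 0.35, adjusted p = 4.8e-08). Ccl8, another monocyte chemokine, fell by 1.69 (SE 0.30), and the acute-phase protein Saa3 had a log2 difference of -1.86 (SE 0.46). Of 29 chemokine genes 13 fell, beside 10.9% of all genes, while Ccl24 and Ccl27a rose by 1.47 and 0.50. In untreated sites 12 of the 29 fell and 3 rose (median -0.663, beside -0.768 under DC101). Ccl24 did not pass without any 1 of arrays 65, 67, 68, 69, 18, 21 and 22 (1.16 and adjusted p = 0.11 without 22), nor Ccl27a without any 1 of 67, 72, 21 and 22 (0.39 and adjusted p = 0.09 without 22). Ccl8 differed by -0.95 (adjusted p = 0.069) and Saa3 by -1.61 (adjusted p = 0.072) without all 6 arrays. The count of 13 falls was 7 without arrays 66 and 70, 6 without 68 and 72, 2 without all 6 arrays, 8 with the RNA ratios in the model, and 7 without either array 72 or array 23 alone. Of all 14718 genes, 823 fell without all 6 arrays.

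Interferon-stimulated genes, the antiviral set that type I interferon switches on, fell in 18 of 22 cases and none rose (median -1.26 under DC101, -0.76 in untreated sites). The DC101 change minus the untreated change passed for 0 of the 22. The median over all genes under DC101 was 0.036. Irf7, which amplifies the interferon response, was at 10.37, 11.04 and 11.74 on DC101 day 20 and 12.49, 12.76 and 13.38 on DC101 day 5, with no overlap (log2 difference -1.75, SE 0.23, adjusted p = 1.6e-08). Mx1, an antiviral GTPase, read 7.78, 8.32 and 8.65 on day 20 and 9.38, 10.01 and 10.28 on day 5 under DC101, a fall of 1.66 with no overlap. Oasl1 fell by 1.61, Ifit1 by 1.37 and the chemokine Cxcl10 by 1.37. Control flank had medians of 11.47 for Irf7 and 8.59 for Mx1, against the DC101 day 20 medians of 11.04 and 8.32. Without all 6 arrays 6 of the 22 fell, and Ifit1 differed by -1.01 (adjusted p = 0.098) and Cxcl10 by -1.12 (adjusted p = 0.12).

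Interferon-stimulated genes carry a response element that the factor ISGF3 binds, so the promoters of the members were searched for its core, GAAANNGAAA, on either strand. This motif was chosen after the values were seen. RefSeq promoter windows (GRCm38.p6, from 250 bases before to 50 after each start) were at hand for 18 of the 22 members, and 13 of these (72.2%) held the core, beside 3.72% of the 11790 genes tested that had a window. Of the 15 that fell and had a window, 11 did. Below are 150 bases, from 120 before the start to 30 after it, of Ifit1, an RNA-binding antiviral protein, Gbp3, a guanylate-binding protein, and Oas1a, which senses double-stranded RNA. These 3 are shown since each fell and holds 2 matches of the core, in capitals. Oas1a and Gbp3 were chosen after their values were seen.
Ifit1: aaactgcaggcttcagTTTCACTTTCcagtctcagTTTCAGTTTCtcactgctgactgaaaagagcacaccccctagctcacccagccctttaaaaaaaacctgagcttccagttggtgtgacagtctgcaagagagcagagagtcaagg
Gbp3: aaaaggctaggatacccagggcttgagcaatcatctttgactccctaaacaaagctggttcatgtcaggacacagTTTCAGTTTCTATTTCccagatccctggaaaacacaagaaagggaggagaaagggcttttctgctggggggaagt
Oas1a: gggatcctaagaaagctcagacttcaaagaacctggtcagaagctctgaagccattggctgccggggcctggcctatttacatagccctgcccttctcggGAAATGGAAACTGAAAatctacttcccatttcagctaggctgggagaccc
Ifit1 lies at chr19:34640769-34640918 (plus strand), Gbp3 at chr3:142559924-142560073 (plus strand) and Oas1a at chr5:120907496-120907645 (minus strand). Gbp3 fell by 1.08 (SE 0.24; -0.72 and adjusted p = 0.11 without all 6 arrays) and Oas1a by 1.28 (SE 0.22). A match is a run of letters, not a measured binding site.

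Cell cycle genes fell in 23 of 29 cases under DC101 (median -0.86), and 27 of the 29 fell in untreated sites (median -1.19). The DC101 change minus the untreated change passed for 0 of the 29. Cdk1, the kinase that drives entry to mitosis, was at 9.28, 10.75 and 11.34 on DC101 day 20 and 11.47, 12.04 and 12.41 on DC101 day 5, with no overlap (log2 difference -1.45, SE 0.29, adjusted p = 8.8e-05). Cyclin B2, encoded by Ccnb2, fell by 1.57 (SE 0.31), the centromere histone Cenpa by 1.5 (SE 0.26), the ubiquitin-conjugating enzyme Ube2c by 1.5 (SE 0.36) and topoisomerase Top2a by 0.95 (SE 0.28). Ccnb2 and Cenpa did not overlap between the days. Top2a differed by -0.54 without arrays 68 and 72 (adjusted p = 0.17), and a dimmer probe set gave -0.26 (adjusted p = 0.54). Other Cenpa probe sets gave -0.44 (adjusted p = 0.073) and -1.02 (adjusted p = 0.29). For Tpx2, a spindle protein, the probe sets disagreed: the brightest gave 0.34, counted as the 1 rise of the list, while 2 others gave -0.82 (adjusted p = 0.003) and -1.06 (adjusted p = 0.00074). The 0.34 also did not pass without any 1 of arrays 65, 66, 68, 69, 70, 19 and 23 (0.27 and adjusted p = 0.13 without 19). Without arrays 68 and 72 the count of falls was 12, and without all 6 arrays 15.

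Genes used late in the cell cycle often carry a cell cycle genes homology region near the start, here searched as TTTGAA or TTTAAA on either strand, together with CCAAT, the NF-Y site. Of 25 cell cycle members with a promoter window, 20 (80%) held the first and 22 (88%) the second, beside 23.6% and 42.1% of all genes with a window. The windows of Cdk1, Cenpa and Ube2c, which had 3 of the 4 largest falls of the list, are shown with the first motif in capitals.
Cdk1: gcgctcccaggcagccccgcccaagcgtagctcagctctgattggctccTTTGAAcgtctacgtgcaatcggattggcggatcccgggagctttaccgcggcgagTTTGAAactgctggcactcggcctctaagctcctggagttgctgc
Cenpa: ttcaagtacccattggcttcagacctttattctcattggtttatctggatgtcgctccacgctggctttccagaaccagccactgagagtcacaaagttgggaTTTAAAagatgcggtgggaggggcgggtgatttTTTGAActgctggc
Ube2c: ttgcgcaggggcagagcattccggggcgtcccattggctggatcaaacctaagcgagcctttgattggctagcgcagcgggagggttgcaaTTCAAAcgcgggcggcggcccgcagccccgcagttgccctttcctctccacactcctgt
Cdk1 lies at chr10:69352883-69353032 (minus strand), Cenpa at chr5:30666766-30666915 (plus strand) and Ube2c at chr2:164769809-164769958 (plus strand).

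**Figure D3:**
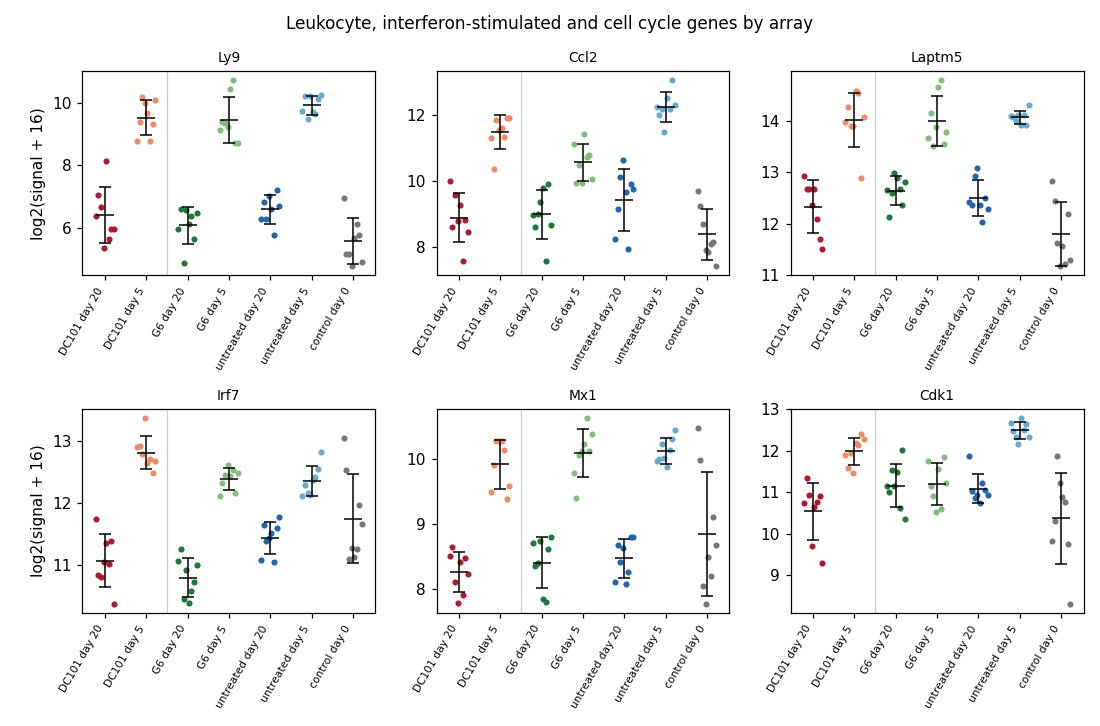
Level of Ly9, Ccl2, Laptm5, Irf7, Mx1 and Cdk1 on each array (points, log2(signal + 16)) in 7 groups, with mean and SD in black. For Ly9, Ccl2, Irf7, Mx1 and Cdk1 every DC101 day 20 array lies below every DC101 day 5 array.

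Genes that glucocorticoids and stress induce changed differently under DC101 than in untreated sites. Under DC101 13 of 17 fell and none rose (median -0.63), while in untreated sites 7 rose and 1 fell (median 0.09). The difference between the 2 changes was tested directly: 267 of all 14718 genes passed (1.81%), and 9 of these 17, all with the DC101 change lower. The 267 were 134 genes with the DC101 change higher and 133 with it lower, and these counts were 300 and 322 without arrays 68 and 72, 70 and 81 without 19 and 20, and 44 and 72 with the RNA ratios. Without 66 and 70 there were 71 with it higher, and without all 6 arrays 89. Of the 17, 11 passed without 68 and 72 and 6 with the RNA ratios, with which 9 fell under DC101.

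Per1, a clock gene that glucocorticoids also induce, was at 10.29, 10.66 and 10.9 on DC101 day 20 and 12.17, 12.3 and 12.65 on DC101 day 5. The 2 groups were far apart with narrow spreads (log2 difference -1.76, SE 0.14, adjusted p = 7.2e-16). Untreated sites had 10.39, 10.81 and 10.96 on day 20 and 10.48, 10.82 and 11.35 on day 5, so that DC101 day 5 stood above all of them, and the changes differed by -1.63 (SE 0.20, adjusted p = 4.2e-08).

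Zbtb16, a transcription factor strongly induced by glucocorticoids, had 9.8, 10.44 and 12.19 on DC101 day 20 and 11.27, 11.86 and 12.12 on DC101 day 5. One day 20 array lay above all day 5 arrays, and the other 7 lay lower than the day 5 mean (log2 difference -1.12, SE 0.24, adjusted p = 0.00037). In untreated sites it read 11.22, 11.41 and 12.13 on day 20 and 9.57, 9.8 and 10.22 on day 5, an opposite change of 1.73, and the changes differed by -2.85 (SE 0.34, adjusted p = 4.2e-08). Dimmer Zbtb16 probe sets gave -0.66 (adjusted p = 0.13) and -0.27 (adjusted p = 0.19) under DC101.

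Fkbp5, a brake on the glucocorticoid receptor, fell by 0.62 (SE 0.17, adjusted p = 0.0052) under DC101 and rose by 0.75 (adjusted p = 0.00066) in untreated sites. Its DC101 day 20 levels were 11.09, 11.26 and 12.88, where the highest is array 72, and its day 5 levels were 11.45, 12.21 and 12.41. The changes differed by -1.37 (SE 0.24, adjusted p = 0.00023). The fall under DC101 did not pass with the RNA ratios (-0.43, adjusted p = 0.097), with adjacent arrays averaged (adjusted p = 0.059), with only the compared groups in the fit (adjusted p = 0.07) or by another probe set (-0.49, adjusted p = 0.14).

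For Klf15 and Tsc22d3 the change under DC101 did not pass, while the untreated change and the difference between the changes did. Klf15, a metabolic transcription factor, was at 8.23, 9.23 and 11.61 on DC101 day 20 and 9.2, 9.81 and 10.56 on DC101 day 5 (log2 difference -0.50, adjusted p = 0.32), against 8.43, 8.99 and 10.28 on day 20 and 4.99, 6.47 and 6.88 on day 5 in untreated sites. The changes differed by -3.38 (SE 0.48, adjusted p = 2.7e-06), but every untreated day 5 level lay below the filter level of 8.44, and with that group set at 8.44 the difference was -1.17, which is the bound these levels allow. Tsc22d3, the anti-inflammatory protein GILZ, differed by -0.46 under DC101 (adjusted p = 0.21) and rose by 1.40 in untreated sites. Without arrays 68 and 72 both passed under DC101, at -0.97 for Klf15 (adjusted p = 0.032) and -0.84 for Tsc22d3 (adjusted p = 0.015), and Tsc22d3 also passed without array 72 alone.

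Pdk4, which spares glucose in fasting, read 10.38, 11.61 and 15.13 on DC101 day 20 and 13.39, 13.86 and 14.84 on DC101 day 5. The day 20 arrays spread over the whole day 5 range (log2 difference -2.04, SE 0.45, adjusted p = 0.00047), and with the RNA ratios the difference was -0.91 and did not pass (adjusted p = 0.14). Dusp1, a phosphatase that ends MAP kinase signals, fell by 1.52 (SE 0.25, adjusted p = 3.7e-06). Hdc, the enzyme that makes histamine, fell by 1.49 (adjusted p = 0.0026) under DC101 and rose by 1.04 (adjusted p = 0.043) in untreated sites, and without all 6 arrays it differed by -1.09 under DC101 (adjusted p = 0.16). Without arrays 68 and 72, 13 of the 17 list members fell, and without all 6 arrays 8 did, with 7 of 17 lower than the untreated change.

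In G6 sites 8 of the 17 fell and none rose, with Per1 medians of 10.45 on day 20 and 11.79 on day 5.

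**Figure D4:**
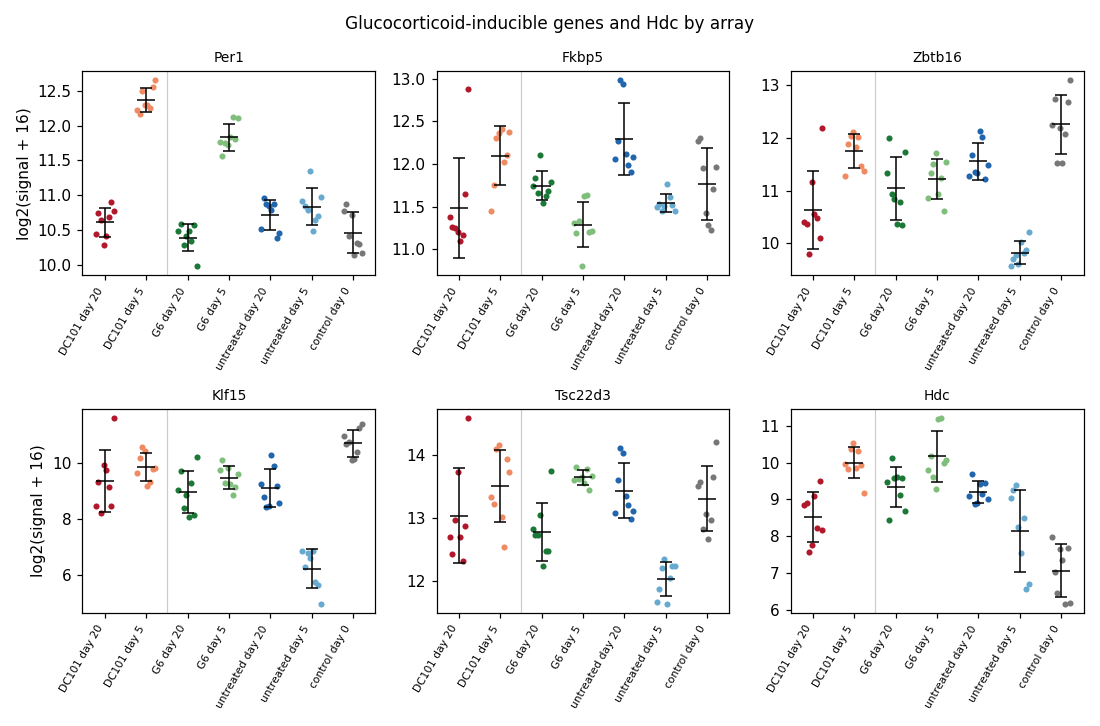
Level of Per1, Fkbp5, Zbtb16, Klf15, Tsc22d3 and Hdc on each array (points, log2(signal + 16)) in 7 groups, with mean and SD in black. Per1 has its highest medians on DC101 day 5 (12.3) and G6 day 5 arrays (11.79), and Klf15 has its lowest median, 6.47, on untreated day 5 arrays.

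Clock genes moved in both directions, with 6 of 15 higher and 3 lower, beside 9.97% and 10.9% of all genes. Dbp, a clock output factor, was at 11.57, 11.84 and 12.88 on DC101 day 20 and 10.29, 10.81 and 11.39 on DC101 day 5, with no overlap (log2 difference 1.25, SE 0.21, adjusted p = 3.6e-06). Per3 rose by 1.07 (SE 0.15), also with no overlap, and Per2 by 0.97 (SE 0.16). Another Per2 probe set gave 0.43 (adjusted p = 0.057). Nr1d1, a repressor in the clock, fell by 0.70 (adjusted p = 0.013), and Npas2, an activator, by 0.74. The Nr1d1 call was lost with the RNA ratios (-0.57, adjusted p = 0.052) and without arrays 19 and 20 (-0.58, adjusted p = 0.066), and Npas2 differed by -0.43 without all 6 arrays (adjusted p = 0.22). In untreated sites Per2 rose by 2.19, more than under DC101 (difference -1.22, SE 0.23, adjusted p = 0.00066), and Nr1d1 rose by 0.73 (difference -1.42, SE 0.30, adjusted p = 0.0029). The E-box CACGTG, bound by the clock activators CLOCK and BMAL1, was in the promoter windows of 5 of 14 clock members (35.7%), beside 11% of all genes with a window. The glucocorticoid and stress list, which also counts Per1, had the same share (5 of 14, 35.7%). CCAAT was in 11 of the 14 clock windows (78.6%), beside 42.1% of all genes with a window. The labels used here give no time of day for the samples.

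Immediate early genes, switched on within minutes of a stimulus, fell in 7 of 24 cases, beside 10.9% of all genes, with Egr3 higher. This list was written after values had been seen, and Csrnp1, which it counts, is among the 15 largest falls. Fos had 10.92, 11.34 and 12.17 on DC101 day 20 and 12.53, 13.29 and 13.95 on DC101 day 5, with no overlap (log2 difference -1.86, SE 0.35, adjusted p = 3.5e-05), and Csrnp1 fell by 2.51 (SE 0.40, adjusted p = 1.7e-06), while its other probe set gave -0.04 (adjusted p = 0.96). Depp1, a target of FOXO factors, fell by 2.68 (SE 0.25, adjusted p = 1.4e-13) with no overlap. Other large falls were those of Calhm6, a leukocyte channel protein, with a log2 difference of -2.91, and Tmem255a, with -2.53, and for Tmem255a the groups did not overlap.

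Of 24 skeletal muscle fibre genes 0 passed under DC101 (limma, adjusted p under 0.05) and 0 had an unadjusted p under 0.05, and their mean level is the one that arrays 68 and 72 raise. The median of the list was -0.11, but -0.74 with 1 fall without arrays 68 and 72, and 0.98 with 2 rises with the RNA ratios. Ckm, muscle creatine kinase and a marker of mature fibres, read 14.3, 15.68 and 16.97 on DC101 day 20 and 14.92, 15.81 and 16.05 on DC101 day 5, so the day 20 range enclosed that of day 5 (log2 difference -0.04, SE 0.45, adjusted p = 0.96). A list of 21 genes of developing or regenerating muscle was written after values were seen. It counts Actc1, Myh3, Myh8, Myl4 and Mest, which are among the 15 largest falls, so its counts are not independent of that ranking. Of the 21, 14 fell and none rose (median -1.16), beside 10.9% of all genes called lower. The falls numbered 13 without arrays 68 and 72, 12 without all 6 arrays and 10 with the RNA ratios in the model, where 1 rose. In untreated sites 8 of the 21 fell and 1 rose (median -0.485), and in G6 sites 15 fell and 0 rose (median -1.421). The DC101 change minus the untreated change passed for 3 of the 21, with the DC101 change lower. The list includes Igf2, Dlk1 and Mest, growth-related genes that other growing tissues also express, with log2 differences of -1.55, -1.02 and -2.57, all past the threshold, although Dlk1 was not without all 6 arrays (-0.69, adjusted p = 0.14). In untreated sites Mest differed by -2.85. Actc1, cardiac actin, which young muscle fibres also make, had the largest fall past the threshold, clone and predicted genes aside. It read 9.3, 10.28 and 10.94 on DC101 day 20 and 12.12, 13.65 and 15.43 on DC101 day 5, with no overlap (log2 difference -3.43, SE 0.41, adjusted p = 1.4e-09).

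The embryonic and perinatal myosins Myh3 and Myh8 had log2 differences of -2.51 (SE 0.35) and -2.98 (SE 0.50), and the embryonic light chain Myl4 one of -2.64 (SE 0.31), none of them with overlap, though the other Myl4 probe set gave 0.49 (adjusted p = 0.31). Mymk, the protein that fuses myoblasts, fell by 2.24 (SE 0.43, adjusted p = 6.3e-05, at least 1.52-fold against the filter level). Untreated sites changed by -1.27 in Actc1, and the changes differed by -2.16 (SE 0.58, adjusted p = 0.031). In G6 sites Actc1 changed by -4.49, and its day 5 median there was 15.05, against 10.89 in control flank.

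Pigment cell genes went up, in a list that counts Mlana, itself among the 15 largest rises. In a list of 13 written after values were seen, 6 rose and none fell (median 1.10), beside 9.97% of all genes called higher. Of the 13, 2 rose without arrays 66 and 70, 3 without 19 and 20, 2 without all 6 arrays and 3 with the RNA ratios in the model. In untreated sites 0 of the 13 passed (median 0.016), and in G6 sites 3 rose and 0 fell (median 0.592). The DC101 change minus the untreated change passed for 0 of the 13. Mlana, a melanosome protein, had 10.73, 11.4 and 12.94 on DC101 day 20 and 7.63, 8.84 and 11.62 on DC101 day 5 (log2 difference 2.35, SE 0.53, adjusted p = 0.00059). The ranges overlapped through day 5 arrays 21 and 22, at 11.62 and 11.5, while the other 6 day 5 arrays, at 9.29 or less, lay below every day 20 array. Tyrp1 and Tyr, enzymes of melanin synthesis, rose by 1.71 (SE 0.60) and 1.57 (SE 0.51). The call was lost for Tyrp1 without any 1 of arrays 66, 70, 71, 18, 20, 23 and 24 (1.39 and adjusted p = 0.11 without 24) and for Tyr without 66 (1.35, adjusted p = 0.059) or 24. Other probe sets gave 1.16 for Tyrp1 (adjusted p = 0.1) and 0.53 for Tyr (adjusted p = 0.11). With the RNA ratios Tyrp1 differed by 1.47 (adjusted p = 0.12) and Tyr by 1.56 (adjusted p = 0.051). For all 3, the changes under DC101 and in untreated sites did not differ past the threshold.

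Of 21 hair follicle genes all 21 had a positive log2 difference, with a median of 1.35, but only Krt33b, a hair keratin, passed (log2 difference 1.47, adjusted p = 0.030), and it did not without array 65, 66, 71, 19 or 24 (1.25 and adjusted p = 0.086 without 19). Without arrays 19 and 20 the median of the list was 0.57. Levels of the list ran from 12.42 to 14.3 on DC101 day 20 and 9.76 to 13.67 on DC101 day 5. In untreated sites the list median was -1.547 with 1 fall, and in G6 sites it was 1.956 with 9 rises. The DC101 change minus the untreated change passed for 0 of the 21 (limma), with 20 at an unadjusted p under 0.05. Mt4, a metallothionein of squamous epithelium, rose by 2.12 and Lce3a, a cornified envelope protein, by 2.37 (adjusted p = 0.0029). Both are among the 15 largest rises and are counted in a cornified envelope list written after values were seen. Of its 18 genes 5 rose and none fell, beside 9.97% of all genes called higher, but 8 had a negative difference (median 0.129). With arrays 19 and 20 or all 6 left out, or with the RNA ratios, 1 rose. In untreated sites 0 of the 18 passed, and in G6 sites 4 rose and 0 fell. The Lce3a call was lost without arrays 19 and 20 (1.47, adjusted p = 0.08), without all 6 (1.36, adjusted p = 0.22) and with the RNA ratios (1.59, adjusted p = 0.079). Among 21 barrier genes, of which 10 had a negative difference (list median 0.051), Ivl, involucrin, rose by 1.37. This call was lost without any 1 of arrays 65, 66, 69, 70, 71, 19, 20, 23 and 24 (1.05 and adjusted p = 0.15 without 24). Ptgds, a prostaglandin synthase, rose by 2.07 (SE 0.69). The call was lost for Mt4 without any 1 of arrays 66, 71, 19, 20, 23 and 24 (1.71 and adjusted p = 0.1 without 24) and for Ptgds without 66, 70, 23 or 24 (1.82 and adjusted p = 0.061 without 23), and for both with the RNA ratios. Another Ptgds probe set gave 1.66 (adjusted p = 0.086).

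**Figure D5:**
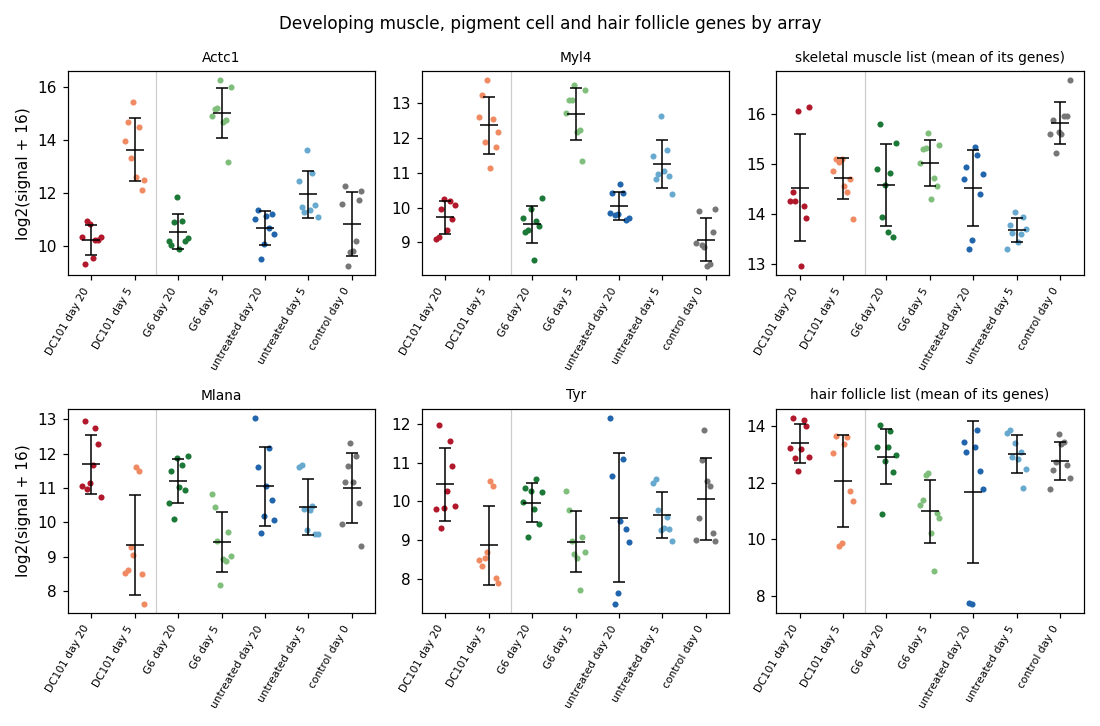
Level of Actc1, Myl4, Mlana and Tyr on each array and the mean level of the skeletal muscle and hair follicle lists (points, log2(signal + 16)) in 7 groups, with mean and SD in black. Actc1 and Myl4 separate DC101 day 20 from day 5, while the mature muscle list has 2 day 20 arrays above all day 5 arrays and its means lie at 14.52 and 14.71.

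Igkv8-30, an immunoglobulin kappa variable gene, had the largest rise past the threshold, clone and predicted genes aside. It read 7.79, 9.3 and 12.99 on DC101 day 20 and 5.84, 7.26 and 7.95 on DC101 day 5 (log2 difference 2.77, SE 0.63, adjusted p = 0.00069, at least 2.88-fold against the filter level). The top 2 day 20 values came from arrays 65 and 66, which also carried the highest Jchain. Related variable genes may share its probes, as may members of the Lce3 and Ms4a4 families.

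Inmt, a methyltransferase, rose by 2.31 (SE 0.44, adjusted p = 4e-05) under DC101 and by 3.50 in untreated sites. Cyp1a1, a detoxifying enzyme that the aryl hydrocarbon receptor induces, had 8.95, 11.26 and 11.99 on DC101 day 20 and 8.76, 9.2 and 10.06 on DC101 day 5 (log2 difference 1.77, SE 0.29, adjusted p = 3.7e-06). Of its day 20 arrays, 7 of 8 lay above the day 5 mean, and its median was 10.0 in G6 day 20 and 9.55 in untreated day 20 arrays.

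The change under DC101 differed from that under G6 in 447 genes (3.04%), 204 higher and 243 lower, of which the lower count was 144 without all 6 arrays. In the pan-endothelial list 8 of 30 passed, in the tip-cell list 6 of 24, in the arterial list 5 of 18 and in the cell cycle list 4 of 29, all with the DC101 change lower. Cdh5 changed by 0.19 in G6 sites, with medians of 11.43 on day 20 and 10.97 on day 5, so both G6 days lay near the DC101 day 20 median of 11.59 (difference between the changes -1.90, SE 0.41, adjusted p = 0.0039). Cdk1 medians were 11.14 and 11.17 in G6 sites. Macrophage and interferon genes fell under both antibodies, and 0 of the 26 and 0 of the 22 differed between the antibodies by limma, with 0 and 0 at an unadjusted p under 0.05.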

How the data were processed

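Flank tissue RNA was measured on Affymetrix mouse genome arrays. The deposited values are linear MAS5 signal intensities, which GCOS 1.3 gave per the submitters' processing notes. On each array the middle 96% of values average 1500. Arrays give no counting depth, so their number limits the precision. Here log2(signal + 16) was used. Probe sets with 1 gene symbol (34958 of 45101; 34754 matched RefSeq) were kept where signal exceeded 331 (8.44 on the log2 scale) on at least 6 arrays, and each of 14718 genes was read by its brightest probe set. 1 limma model (3.58.1, R 4.3.3; eBayes with trend) was fitted over all 10 groups, with two-sided tests, and its 5 contrasts were adjusted by Benjamini-Hochberg over 14718 genes at 0.05. Where DC101 is compared with another treatment, the interaction was tested. Every adjusted p in the text without another name comes from this model. The model was tested on simulated data.

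The members, gene lists (34, plus 5 written after values were seen) and tests were chosen with earlier results of these data known. Lists are described by counts and medians only. Named genes are the 15 largest rises and falls past the threshold and the 4 largest changes and key genes of each list. The 8 largest interactions of each sign and Vegfa, Flt1 and Kdr were added. The text gives only part of these, and none of the 8 largest positive interactions with untreated sites. It also gives 13 other genes named after values were seen, as members of small counts or for their promoters. Alternatives were quantile normalization, pseudocounts of 1 and 64, dropping the filter, the mean of probe sets, other probe sets, a fit of only the compared groups, array weights, RNA ratios as covariates, adjacent arrays averaged or as a random block, a 2-fold minimum, and each array left out. Leaving out arrays 68 and 72, 66 and 70, 19 and 20, or all 6 was added after seeing the data.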

Additional observations from a re-analysis of the deposited data

Results flagged for a closer look

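In 6 groups of 8 arrays, 1 array lay far from the other 7 on the log2 scale. Chance alone flags about 1 group in 20, or 11.5 of the 230 groups examined. Fkbp5 was at 12.88 on DC101 day 20 array 72, with the other 7 between 11.09 and 11.65. On DC101 day 5, Col15a1 was at 13.26 on array 24 (others 12.26 to 12.68), Ckm at 14.92 on array 24 (others 15.59 to 16.05), Laptm5 at 12.89 on array 23 (others 13.91 to 14.59) Ccl2 at 10.37 on array 18 (others 11.3 to 11.92) and Gzmb at 6.73 on array 18 (others 8.58 to 10.05).

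The change from day 5 to day 20 differed between DC101 and untreated sites for 12 of the genes given in the text (limma interaction, log2 scale). The DC101 change was the lower one for each of these 12. Over all genes it was higher for 134 and lower for 133, and the genes with the largest positive differences are not among the 12. The change under DC101 minus that in untreated sites was -3.38 for Klf15, -2.85 for Zbtb16, -2.71 for Cxcl13, -2.54 for Hdc, -2.16 for Actc1, -1.86 for Tsc22d3, -1.63 for Per1, -1.62 for Dlk1, -1.42 for Nr1d1, -1.37 for Fkbp5, -1.28 for Igf2 and -1.22 for Per2. Cxcl13, the B-cell chemokine, differed by 0.57 under DC101 (adjusted p = 0.48) and rose by 3.27 in untreated sites. All untreated day 5 levels of Klf15 and all G6 day 5 levels of Per2 lay below the filter level, and with these groups set at that level the differences were -1.17 for Klf15 and, against G6, -0.43 for Per2.

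Against G6 sites, 25 of the genes given in the text differed in their change. Over all genes the DC101 change was higher for 204 and lower for 243. Of the largest positive differences by the naming rule, only Cyp1a1 is among the 25. Endothelial and basement membrane genes had a lower change under DC101: Esm1 by -2.75, Kcne3 by -2.48, Notch4 by -2.19, Tie1 by -1.93, Cdh5 by -1.90, Robo4 by -1.77, Hey1 by -1.48, Nid2 by -1.51, Col4a2 by -1.44, Col18a1 by -1.41, Dll4 by -1.15 and Apln by -1.03. So had Saa3 (-2.46), Csrnp1 (-1.90), Mest (-1.68), Ube2c (-1.85), Thbs1 (-1.58), Tmem255a (-1.56), Cdk1 (-1.42), Cenpa (-1.39), Fkbp5 (-1.07) and Per2 (-1.03). The DC101 change was higher for Cyp1a1 (1.83), Casq2 (1.27) and Per3 (0.71).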

How the results depend on the processing

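No paired analysis was possible because the running numbers of the arrays are not shared between groups. Pseudocounts, no filter, quantile normalization and the mean of probe sets kept every count within 1.5 times and reversed no named gene but Ckm and Tpx2. Calls were still lost in these settings for some of the 115 genes given. They numbered 9 with the mean of probe sets, 8 without the filter, 6 with quantile normalization and 1 with a pseudocount of 1. Vegfa was among the 9 (-0.5, adjusted p = 0.071). Counts that moved beyond 1.5 times follow as higher and lower genes. With the RNA ratios as covariates, G6 gave 369 and 352 (1196 and 1293 before) and DC101 minus untreated 44 and 72 (134 and 133 before), and falls numbered 7 pan-endothelial, 9 tip-cell, 4 basement membrane and 8 chemokine genes. With adjacent arrays as a block (correlation 0.18), DC101 minus untreated gave 54 and 72 and DC101 minus G6 72 and 112 (204 and 243 before). With adjacent arrays averaged, DC101 had 948 higher, untreated 875 lower, G6 683 and 814, DC101 minus untreated 17 and 40, DC101 minus G6 45 and 62, and falls were 6 pan-endothelial, 8 tip-cell and 6 chemokine genes. In this setting 32 of the 115 genes lost their call, among them Kdr (-0.7, adjusted p = 0.17) and Tie1 (-1.22, adjusted p = 0.072). Array weights gave untreated 2818 and 2415, DC101 minus untreated 896 and 1121, and DC101 minus G6 379 and 421. At 2-fold or more, DC101 had 145 and 329, untreated 322 and 326, G6 172 and 239, DC101 minus untreated 24 and 57, DC101 minus G6 30 and 77, and falls were 8 pan-endothelial, 7 tip-cell, 4 basement membrane, 13 macrophage, 9 cell cycle and 6 glucocorticoid genes. With only the compared groups in the fit, DC101 minus G6 had 99 higher.

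Settings added after seeing the data left out arrays, which also leaves fewer samples. Without 19 and 20, DC101 minus untreated had 70 and 81. Without 66 and 70 it had 71 higher, and falls were 6 pan-endothelial, 9 tip-cell and 7 chemokine genes. Without 68 and 72 it had 300 and 322, and falls were 9 pan-endothelial, 12 cell cycle and 6 chemokine genes. Without all 6, DC101 had 919 and 823, DC101 minus untreated 89 higher, DC101 minus G6 144 lower, and falls were 3 pan-endothelial, 7 tip-cell, 4 basement membrane, 6 wound matrix, 6 macrophage, 6 interferon, 15 cell cycle, 8 glucocorticoid and 2 chemokine genes. Leaving out single arrays gave 1226 to 1502 higher and 1320 to 1591 lower genes under DC101, 8 to 17 pan-endothelial and 7 to 14 chemokine falls.

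Signs turned for Klf15 (0.18 with the RNA ratios), Pecam1 (0.19 without all 6 arrays) and, by another probe set, Vegfa (0.56), Laptm5 (0.20), Tsc22d3 (0.02), Myl4 (0.49), Prf1 (0.06) and Tpx2 (-0.82 and -1.06, and -0.34 as the mean of its probe sets), of which Vegfa and Tpx2 passed. Ckm, at -0.04, was 0.14 as the mean of its probe sets, 0.33 by another probe set, 1.06 with the RNA ratios, 0.01 without 66 and 70, 0.05 without 19 and 20, and -0.22 to 0.16 without single arrays. The cause was not tested.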
